A study of Arabidopsis thaliana with 4 samples.

Results

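The 276 genes described here encode proteins that loosen the plant cell wall or modify its pectin, out of 32399 genes in the authors' table of the Arabidopsis thaliana shoot apex. They were chosen by the short annotation alone: every gene whose annotation names an expansin, a xyloglucan endotransglucosylase or endotransglycosylase, a pectin methylesterase or pectinesterase, or a pectin lyase. The rule itself used no measured value. They fall into 34 expansins, 29 xyloglucan endotransglucosylase/hydrolases (XTHs), 115 genes annotated as pectin methylesterases (PMEs) or their inhibitors, and 98 genes annotated as members of the pectin lyase-like superfamily. The longer descriptions in the table place 57 of the genes in the class of PMEs, 74 in that of PME or invertase inhibitors, 62 in that of polygalacturonases and 18 in that of pectate lyases, and leave 2 without a class. An annotation rule of this kind also misses relatives. Among 13 genes that TAIR10.1 names as family members but the rule does not reach are TCH4, XTH33, XTH31 and EXP3.

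Poly(A) RNA was sequenced as single-end reads from dissected shoot apices of Col-0 plants aged 10 days, from which leaves, hypocotyl and roots had been cut away. The 4 groups, each with 2 libraries that the file headers call biological replicates, were nse4a-2 mutants kept for 24 h in liquid medium with 20 µM zebularine, nse4a-2 mutants kept for 24 h in the same medium without it, wild-type plants in zebularine, and wild-type plants in control medium. All plants had grown for 9 days on solid medium without the drug, and the controls shared the move to liquid. NSE4A encodes a subunit of the SMC5/6 complex, a chromosome ATPase that acts in DNA repair, and zebularine is an analogue of cytidine that inhibits DNA methyltransferases after being built into DNA. The nature of the nse4a-2 lesion is not given in the sources used here, and NSE4A itself averaged 19.8, 8.10, 11.7 and 9.96 CPM, a read count scaled to library size, in nse4a-2 with zebularine, nse4a-2 control, wild-type zebularine and wild-type control libraries, so the count does not check the genotype. Nothing beyond the word biological says that replicates came from separate cultures, so each p-value measures the spread between these libraries.

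A growing plant cell is held by cellulose microfibrils tied together by xyloglucan and embedded in pectin. Alpha- and beta-expansins loosen this network without cutting it, while XTHs cut xyloglucan chains and join the ends to other chains. Pectin is secreted with methyl groups on its galacturonic acid. PMEs remove those groups, PME inhibitor proteins block the PMEs, and polygalacturonases and pectate lyases cut the demethylated chain. In the Arabidopsis shoot meristem the methylation state of pectin is known to bear on where organs form, and PME5 and the inhibitor gene AT5G20740 (PMEI3) are the pair best known from that work. No sequences are shown, since none of the build named by the authors was used here.

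Library totals ran from 15360494 to 19811948 reads, and the 276 genes together took 0.477 to 0.536% of the reads of a library. Of them, 194 had at least 1 read, 82 had none in any of the 8 libraries, and 123 passed edgeR's filter on low counts. The other 71 had reads but too few to test, with at most 55 in all libraries summed. A count of 0 in 1 library allows a level of up to 0.147 to 0.192 CPM, which is 3 reads, and this limit covers counting error only. The labelled tissue was checked against marker genes. STM, the homeobox gene that maintains the meristem, averaged 15.6, 20.4, 19.6 and 18.8 CPM in the groups in the order above, and the receptor gene CLV1 averaged 51.3, 50.8, 45.4 and 47.2 CPM. WUS and CLV3, which mark a few cells in the meristem centre, stayed below 0.35 CPM on average in every group. Root markers summed to 1.37 to 4.85 CPM per library and pollen markers to 0.404 to 1.49 CPM, with the pollen gene MGH3 at 0 reads throughout. Leaf photosynthesis genes were abundant at 11770 to 18910 CPM summed over 6 genes.

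The mean FPKM per group, computed by the authors per gene length, ranks genes against each other. XTH4 stood far above the rest at a mean FPKM of 734 over the 4 groups. XTH9, which is known to be active in inflorescence apices, followed at 313 FPKM, then the inhibitor gene AT5G62350 at 224 FPKM, the widely expressed PME3 at 212 FPKM and PME5 at 142 FPKM. EXPA1 at 130 FPKM, EXPA6 at 118 FPKM and EXPA11 at 103 FPKM led the expansins, XTH7 reached 117 FPKM and the PME gene AT3G49220 reached 116 FPKM. In the pectin lyase-like family, AT4G23820, a polygalacturonase, at 66.4 FPKM and AT1G04680, a pectate lyase, at 56.6 FPKM followed PME5. XTH4 alone took 14.02 to 16.25% of all reads on the 276 genes, and XTH4, PME3, XTH9 and PME5 together took 26.1 to 37.3%. Most genes of the large pectin families were at or near 0: 23 of 62 polygalacturonases and 29 of 74 inhibitors were listed at 0 FPKM, and 19 and 29 more lay between 0 and 1 FPKM. Of the 29 XTHs, 3 were listed at 0 FPKM and 6 more lay between 0 and 1 FPKM, and of the 18 pectate lyases 4 and none. None of the 4 expansin-like genes was below 1 FPKM. None of the leading genes XTH4, PME3, XTH7, EXPA11, AT3G49220, AT4G23820 and AT1G04680 was called in any comparison.

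Zebularine in nse4a-2, against nse4a-2 in control medium, changed 17 of the 123 tested genes. A gene was called at an adjusted p below 0.05 in the quasi-likelihood test of edgeR, with Benjamini-Hochberg adjustment across the 19682 genes that passed the filter. Calls higher in zebularine numbered 5 and calls lower numbered 12. Over all genes tested, 14.7% were called, 8.94% higher and 5.74% lower, so the 13.8% called here is close to the background, with 4.07% higher and 9.76% lower. The median log2 fold change of the 123 genes was 0.02, against 0.00 for all genes. The genes that fell were 3 expansins, 4 XTHs and 5 pectin lyase-like genes, while the 2 calls in the family annotated as PMEs and inhibitors were both rises. By class, PMEs went both ways. Of 28 tested, AT2G26440 was called higher, and 2 that are annotated in the pectin lyase-like family, PME5 and AT5G19730, were called lower.

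Among the XTHs, XTH9 fell to 155 and 108 CPM in nse4a-2 with zebularine, against 298 and 328 CPM in nse4a-2 control. The wild-type libraries had 260 and 333 CPM with zebularine and 401 and 364 CPM in control medium. Both nse4a-2 zebularine libraries thus lay below all 6 others. Its log2 fold change in nse4a-2 was −1.25 ± 0.19 (SE; edgeR adjusted p = 0.00294). In whole apices, fewer cells of a type and less RNA per cell cannot be told apart. XTH16 was likewise lowest in those libraries, with 50.04 and 39.3 CPM in nse4a-2 with zebularine, 81.7 and 90.3 CPM in nse4a-2 control, 92.1 and 86.9 CPM in wild-type zebularine and 113 and 99.0 CPM in wild-type control. It fell by 0.95 on the log2 scale (SE 0.14, edgeR adjusted p = 0.00291). XTH6, a gene at a lower level, had 7.18 and 5.77 CPM with zebularine against 10.8 and 13.1 CPM in control, a log2 fold change of −0.88 ± 0.20 (edgeR adjusted p = 0.0192). XTH15 lay lower still, with 2.79 and 0.865 CPM against 4.01 and 6.56 CPM, and its call at an edgeR adjusted p of 0.044 was lost in 8 of 13 alternative fits. XTH28, known for its part in stamen filament growth, was the XTH that rose: it had 155 and 148 CPM with zebularine, against 111 and 90.4 CPM in control (log2 fold change 0.59 ± 0.14, edgeR adjusted p = 0.0259). The calls of XTH9 and XTH16 held in all 13 alternative fits. That of XTH6 was lost without nse4a-2 control replicate 2 or nse4a-2 zebularine replicate 2, and that of XTH28 without either of these or nse4a-2 zebularine replicate 1, over log2 ranges of −1.05 to −0.73 and 0.44 to 0.74.

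The expansins that fell in nse4a-2 with zebularine were EXPA14, EXPA15 and EXLB1. EXPA15 had 91.8 and 86.5 CPM with zebularine against 121 and 149 CPM in control, a log2 fold change of −0.60 ± 0.15 (edgeR adjusted p = 0.0265). The zebularine values lie within the range of the wild-type libraries, which had 75.6 and 88.3 CPM with zebularine and 94.2 and 77.7 CPM in control, so nse4a-2 control stood apart as the high group. EXLB1, an expansin-like gene, fell by 0.79 (SE 0.15, edgeR adjusted p = 0.00897), with 13.1 and 16.5 CPM against 27.4 and 24.0 CPM. EXPA14 had few reads, at 0.572 and 0.807 CPM against 2.54 and 2.60 CPM (log2 fold change −1.88 ± 0.38, edgeR adjusted p = 0.0109). Each of the 3 calls was lost without nse4a-2 zebularine replicate 1. Those of EXPA14 and EXPA15 were also lost without its replicate 2, and those of EXPA15 and EXLB1 also without 1 of the nse4a-2 control libraries. The log2 fold changes over all alternatives were −2.15 to −1.66 for EXPA14, −0.75 to −0.44 for EXPA15 and −0.97 to −0.64 for EXLB1.

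Of the genes that act on pectin, PME5 fell in nse4a-2 to 95.8 and 89.7 CPM with zebularine, against 212 and 170 CPM in control (log2 fold change −1.04 ± 0.14, edgeR adjusted p = 0.00172). The pectate lyase AT3G53190 had 44.8 and 43.3 CPM against 90.01 and 102 CPM (−1.12 ± 0.11, edgeR adjusted p = 0.000395). In wild type it had 96.5 and 93.7 CPM with zebularine and 110 and 111 CPM in control, so only the nse4a-2 zebularine libraries were below 50 CPM. Polygalacturonase genes moved both ways. AT3G61490 had 13.3 and 13.2 CPM against 30.9 and 40.8 CPM (log2 fold change −1.44 ± 0.19, edgeR adjusted p = 0.00141), and AT1G10640 had 15.8 and 12.5 CPM against 25.8 and 35.2 CPM (−1.11 ± 0.18, edgeR adjusted p = 0.00458). AT1G02460 rose, with 33.2 and 30.9 CPM against 10.4 and 9.40 CPM (log2 fold change 1.70 ± 0.20, edgeR adjusted p = 0.000852). It was at 7.94 and 6.57 CPM in wild-type zebularine libraries and at 4.90 and 3.08 CPM in wild-type control, so the nse4a-2 zebularine libraries lay apart from all others. The pectate lyase AT3G09540 rose too, with 19.4 and 18.6 CPM in zebularine and 9.92 and 13.6 CPM in control (0.70 ± 0.18, edgeR adjusted p = 0.0281). The PME gene AT5G19730 fell by 0.81 (SE 0.20, edgeR adjusted p = 0.0246). The calls of PME5, AT3G53190, AT3G61490 and AT1G02460 held in all 13 alternative fits. That of AT1G10640 was lost without nse4a-2 zebularine replicate 2, at −0.87, and those of AT3G09540 and AT5G19730 without any of 3 and 4 of the nse4a-2 libraries, over ranges of 0.48 to 0.93 and −0.89 to −0.73.

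Rises among PMEs and inhibitors in nse4a-2 were those of AT2G26440 and AT5G62350. AT2G26440, annotated as a PME, had 52.4 and 48.7 CPM with zebularine against 22.5 and 23.3 CPM in control (log2 fold change 1.14 ± 0.22, edgeR adjusted p = 0.00826), while the wild-type libraries held 12.5 and 22.4 CPM with zebularine and 20.0 and 20.8 CPM in control. AT5G62350, an inhibitor, had 266 and 273 CPM against 141 and 160 CPM (0.84 ± 0.15, edgeR adjusted p = 0.00715). Both calls were lost without nse4a-2 control replicate 1, and the second also without nse4a-2 zebularine replicate 2, over log2 ranges of 1.09 to 1.19 and 0.74 to 0.93. The meristem inhibitor AT5G20740, named for its known role and not for its values, had 38.8 and 31.5 CPM with zebularine and 44.8 and 48.6 CPM in control, which did not pass the test (log2 fold change −0.41, edgeR adjusted p = 0.158).

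**Figure D1:**
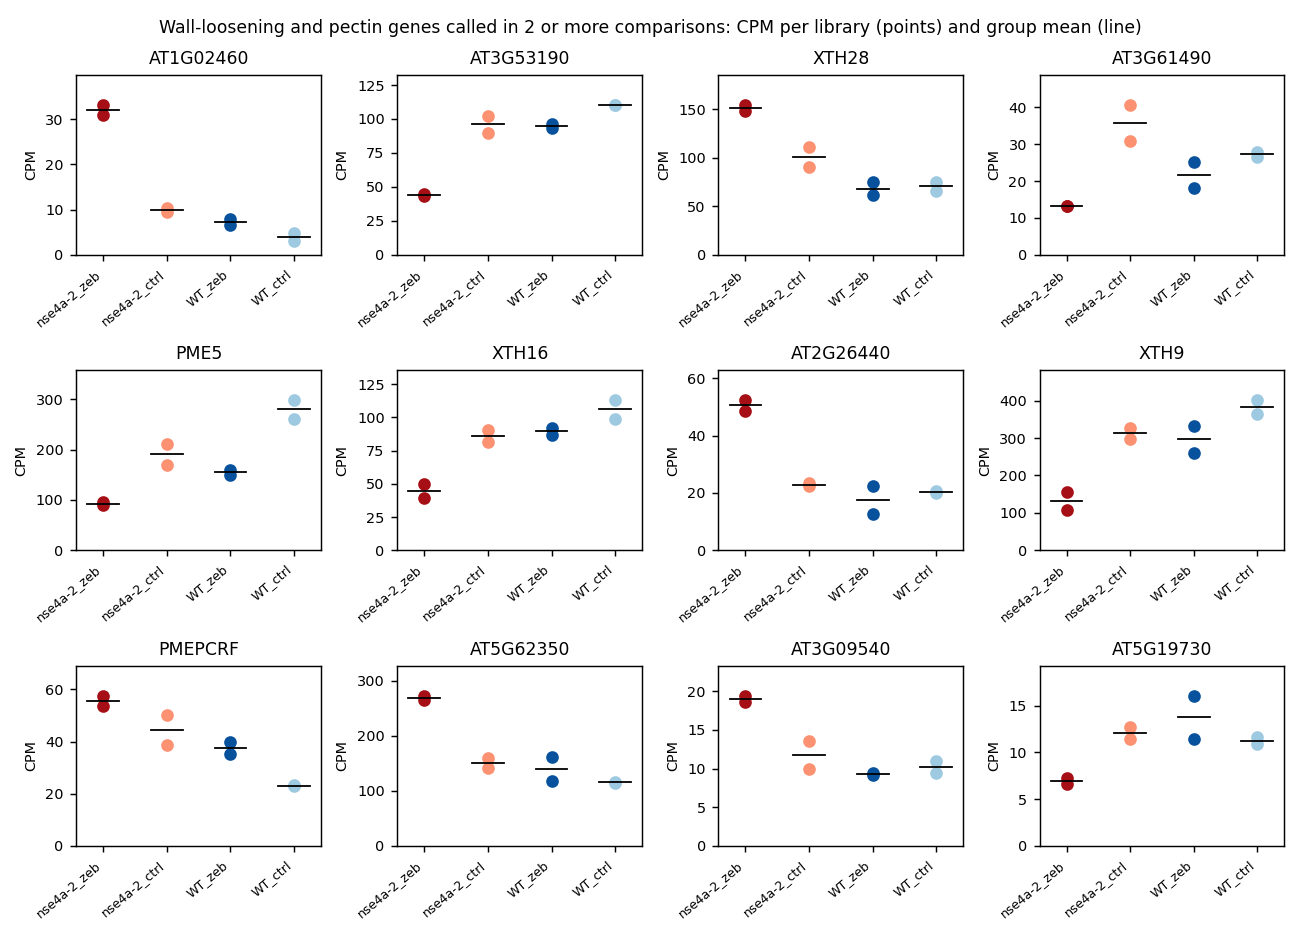
CPM per library (points, 2 per group) and group mean (line) of the 12 genes with per-library values, in nse4a-2 with zebularine, nse4a-2 control, wild-type zebularine and wild-type control libraries; each vertical axis starts at 0. The nse4a-2 zebularine libraries are the lowest in the panels of XTH9, XTH16 and AT3G53190 and the highest in those of XTH28, AT1G02460 and AT5G62350.

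In wild type, zebularine against control medium changed 5 of the 123 genes, 4 higher and 1 lower. That is 4.07% of those tested, beside 2.3% of all genes (1.66% higher and 0.635% lower). The median log2 fold change was 0.15, beside −0.01 for all genes. The rises were those of the expansin-like genes EXLA1 and EXLA2, whose products share the expansin fold without a known loosening activity, of XTR6, an XTH, and of PMEPCRF, a PME. EXLA1 had 25.7 and 29.7 CPM with zebularine and 7.11 and 12.8 CPM in control (log2 fold change 1.49 ± 0.25, edgeR adjusted p = 0.0193), and EXLA2 had 37.6 and 46.6 CPM and 17.9 and 26.3 CPM (0.93 ± 0.18, edgeR adjusted p = 0.0317). XTR6 was at 18.6 and 25.1 CPM with zebularine, against 2.53 and 7.37 CPM in control (2.16 ± 0.39, edgeR adjusted p = 0.0269). PMEPCRF was at 35.2 and 39.8 CPM, against 22.8 and 23.2 CPM (0.71 ± 0.14, edgeR adjusted p = 0.0368). PME5 was the gene that fell, with 160 and 149 CPM with zebularine and 298 and 261 CPM in control (−0.86 ± 0.14, edgeR adjusted p = 0.0172), so PME5 was called lower in zebularine in both genotypes.

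For 3 of the 4 wild-type rises, those of EXLA1, EXLA2 and XTR6, replicate 1 of wild-type control was lower than replicate 2, while the 2 libraries were close for PMEPCRF. Even so, PMEPCRF was called in only 6 of 13 alternative fits, against 8 for EXLA2 and XTR6 and 10 for EXLA1 and PME5. Replicate 1 of wild-type control also held 8.92 CPM of XTH18 and 21.3 CPM of XTH19 where replicate 2 held 35.4 and 69.4 CPM. XTH18 at 88.1 and 95.4 CPM and XTH19 at 115 and 130 CPM in wild-type zebularine libraries lay above both controls but did not pass the test (edgeR adjusted p = 0.0591 and 0.109); these 2 neighbouring genes were named after their values were seen. Without wild-type control replicate 1 all 5 calls were lost, and EXLA1 was then at a log2 fold change of 1.12 and XTR6 at 1.57. All 5 were also lost without wild-type zebularine replicate 2, where EXLA1 was at 1.39 and XTR6 at 1.93.

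The zebularine responses of nse4a-2 and wild type come from separate libraries and can be set beside each other. Across the 123 genes they correlated at Pearson's r of 0.52 and Spearman's rho of 0.41, beside 0.44 and 0.39 over all genes tested, and 61.8% had the same sign, beside 62.7% of all genes. These are descriptions across genes, which are not independent replicates, and the comparisons share the fit and its scaling but no library. A test of the difference itself called 1 gene, AT3G53190, whose response in nse4a-2 was lower than that in wild type by a log2 difference of −0.91 ± 0.15 (edgeR adjusted p = 0.0354). That is 0.813% of the 123, beside 0.772% of all genes (0.549% with a higher response in nse4a-2 and 0.224% with a lower one), and the median difference was −0.13, beside −0.01. The call was lost in each of the 8 fits that leave out 1 library, where the difference ranged from −1.01 to −0.82. For the expansins, 18 of the 19 genes that passed the count filter, of 34 in the family, had a lower log2 fold change in nse4a-2 than in wild type, with a median difference of −0.48, beside 50.8% of all genes and a median of −0.01. None of the 19 passed the edgeR or the DESeq2 test alone, with 6 at an unadjusted edgeR p under 0.05, and EXPA16, named for this, was the exception in sign at 0.34. The smallest p-values belonged to EXPB3 at −0.66 ± 0.19 and EXPA14 at −1.70 ± 0.52 (edgeR adjusted p = 0.152 and 0.176). The XTHs had 13 of 20 below 0, PMEs and inhibitors 22 of 43, pectin lyase-like genes 21 of 41 and the whole set 74 of 123. The expansins were thus the most uneven family, which was not tested. Among the XTHs, XTH6 at −1.34 ± 0.28 and XTH16 at −0.70 ± 0.20 had the smallest p-values (edgeR adjusted p = 0.0663 and 0.14). The XTH6 difference was called with DESeq2 (adjusted p = 0.025), without the count filter and without wild-type zebularine replicate 2 (edgeR adjusted p = 0.0159 and 0.0491). For PMEs and inhibitors, AT2G26440 at 1.37 ± 0.31 and AT5G62360 at 2.43 ± 0.65 were the closest to a call (edgeR adjusted p = 0.0771 and 0.126). Both were called without the filter and without wild-type zebularine replicate 2, and AT2G26440 also with DESeq2 (adjusted p = 0.00407).

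**Figure D2:**
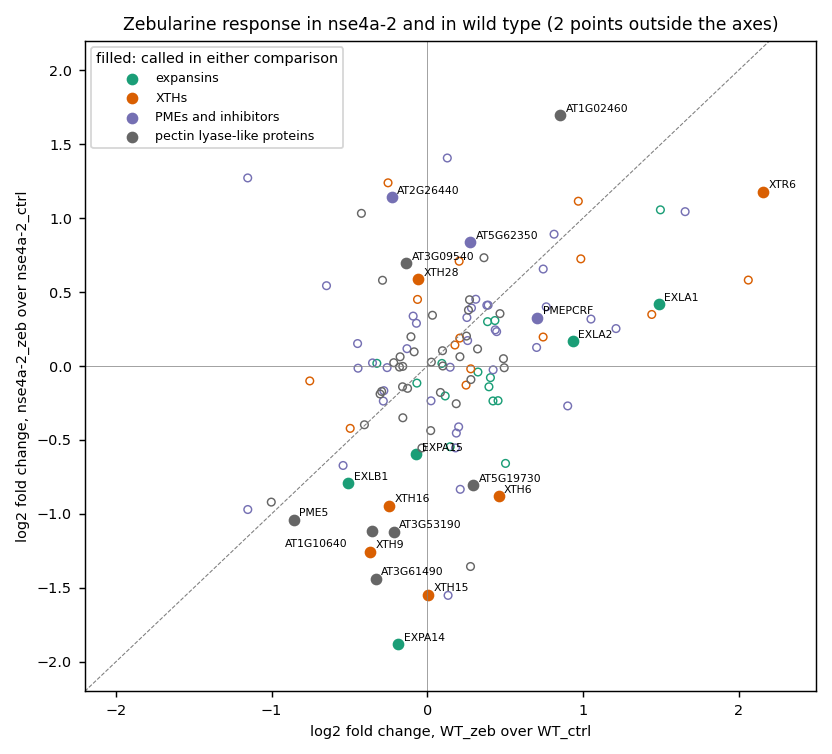
Log2 fold change of each of the 123 tested genes for nse4a-2 zebularine over nse4a-2 control (vertical) and wild-type zebularine over wild-type control (horizontal), coloured by family; filled points were called in either comparison, the dashed line marks equal change, and AT5G04960 and AT5G62340, which were not called, lie outside the axes. PME5 is low on both axes, XTH9, XTH16 and AT3G53190 lie below the line, and EXLA1, EXLA2 and XTR6 lie to its right.

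In control medium, nse4a-2 against wild type gave 6 calls, all higher in nse4a-2, which is 4.88% of the 123 genes beside 3.13% of all genes (2.28% higher, 0.854% lower). The median log2 fold change was 0.05, beside −0.01 for all genes. The calls lay in 3 families and included 2 alpha-expansins. EXPA10, known for its part in leaf growth, had 84.6 and 87.6 CPM in nse4a-2 and 59.0 and 54.6 CPM in wild type (log2 fold change 0.60 ± 0.11, edgeR adjusted p = 0.0241). EXPA15 had 121 and 149 CPM in nse4a-2, against 94.2 and 77.7 CPM in wild type (0.65 ± 0.15, edgeR adjusted p = 0.0496). PMEPCRF had 38.6 and 50.2 CPM in nse4a-2 and 22.8 and 23.2 CPM in wild type (0.95 ± 0.14, edgeR adjusted p = 0.00986). AT3G17130, an inhibitor at a low level, had 3.05 and 4.89 CPM against 0.881 and 1.15 CPM (1.97 ± 0.40, edgeR adjusted p = 0.0305). The polygalacturonases AT1G02460 and AT1G48100 rose by 1.30 ± 0.22 and 1.10 ± 0.22 (edgeR adjusted p = 0.0165 and 0.0312), the second with 13.9 and 18.7 CPM in nse4a-2 and 6.06 and 9.16 CPM in wild type. No XTH was called by edgeR, and 3 of 20 had an unadjusted p under 0.05. XTH28 was called with DESeq2 (adjusted p = 0.0349) and without the count filter (edgeR adjusted p = 0.0365). XTH28 and XTH24 had the smallest p-values of the XTHs, with log2 fold changes of 0.52 ± 0.15 and 0.67 ± 0.27 (edgeR adjusted p = 0.0953 and 0.219). Without wild-type control replicate 1, or without nse4a-2 control replicate 2, the calls higher in nse4a-2 numbered 1 and 0. Leaving out either nse4a-2 zebularine library, which this comparison does not use but which share the estimate of spread, left 3. The call of EXPA15 was lost in 6 of 13 alternative fits, and those of AT3G17130 and AT1G48100 in 5. EXPA10 was called in 9 of 13, and its call was lost whenever 1 of the libraries compared was left out. AT1G02460 was called in 10 of 13 and PMEPCRF in 11.

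In zebularine, nse4a-2 against wild type gave the most calls, 9 higher and 17 lower in nse4a-2. Their 21.1% is close to the 22% of all genes, with 7.32% higher and 13.8% lower here, beside 12.9% higher and 9.09% lower over all genes. The difference between these splits was not tested. The median log2 fold change was −0.09, beside −0.02 for all genes. This comparison shares its nse4a-2 zebularine libraries with the zebularine comparison in nse4a-2, so genes that stand apart in those libraries are seen in both. The expansins called were all lower in nse4a-2. EXPA1, known from guard cells, had 89.9 and 97.9 CPM in nse4a-2, against 267 and 182 CPM in wild type (log2 fold change −1.26 ± 0.17, edgeR adjusted p = 0.00108). In control medium it had 109 and 97.6 CPM in nse4a-2 and 167 and 174 CPM in wild type, which did not pass the test (−0.72 ± 0.17, edgeR adjusted p = 0.0563). EXPA8 had 3.94 and 5.94 CPM against 13.5 and 10.8 CPM (−1.30 ± 0.23, edgeR adjusted p = 0.00427), and the beta-expansin EXPB3 had 37.1 and 34.6 CPM against 67.8 and 64.1 CPM (−0.88 ± 0.14, edgeR adjusted p = 0.00195). EXPA6 differed least, by −0.38 ± 0.12, and its call at an edgeR adjusted p of 0.0418 was lost in 9 of 13 alternative fits. The calls of EXPA1, EXPA8 and EXPB3 held in all 13.

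The XTH calls between the genotypes in zebularine were XTH28, higher in nse4a-2 by 1.16 ± 0.15 on the log2 scale (edgeR adjusted p = 0.000713), and 5 lower genes. XTH9 and XTH16 had log2 fold changes of −1.18 ± 0.19 and −1.003 ± 0.14 (edgeR adjusted p = 0.00224 and 0.00118), XTH15 of −1.60 ± 0.44 and XTH6 of −0.93 ± 0.20 (edgeR adjusted p = 0.0279 and 0.00999). XTH17, named after its values were seen, had 30.6 and 34.3 CPM in nse4a-2 and 61.8 and 59.2 CPM in wild type. Within the pectin lyase-like family, AT1G02460 was higher in nse4a-2 by 2.14 ± 0.20 and AT3G09540 by 1.03 ± 0.18 (edgeR adjusted p = 0.000153 and 0.00323). Those lower numbered 6, led by AT3G53190 at −1.11 ± 0.11, AT5G19730 at −0.997 ± 0.19, AT4G24780, a pectate lyase, at −0.77 ± 0.19 and PME5 at −0.74 ± 0.14 (edgeR adjusted p = 0.000205, 0.00614, 0.0187 and 0.00529). Of the genes in this paragraph, XTH28, XTH9, XTH16, AT1G02460, AT3G09540 and AT3G53190 were called in all 13 alternative fits. Without nse4a-2 zebularine replicate 2 the calls of XTH15, XTH6, AT5G19730, AT4G24780 and PME5 were lost, and without wild-type zebularine replicate 1 those of XTH15, XTH6 and AT4G24780.

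**Figure D3:**
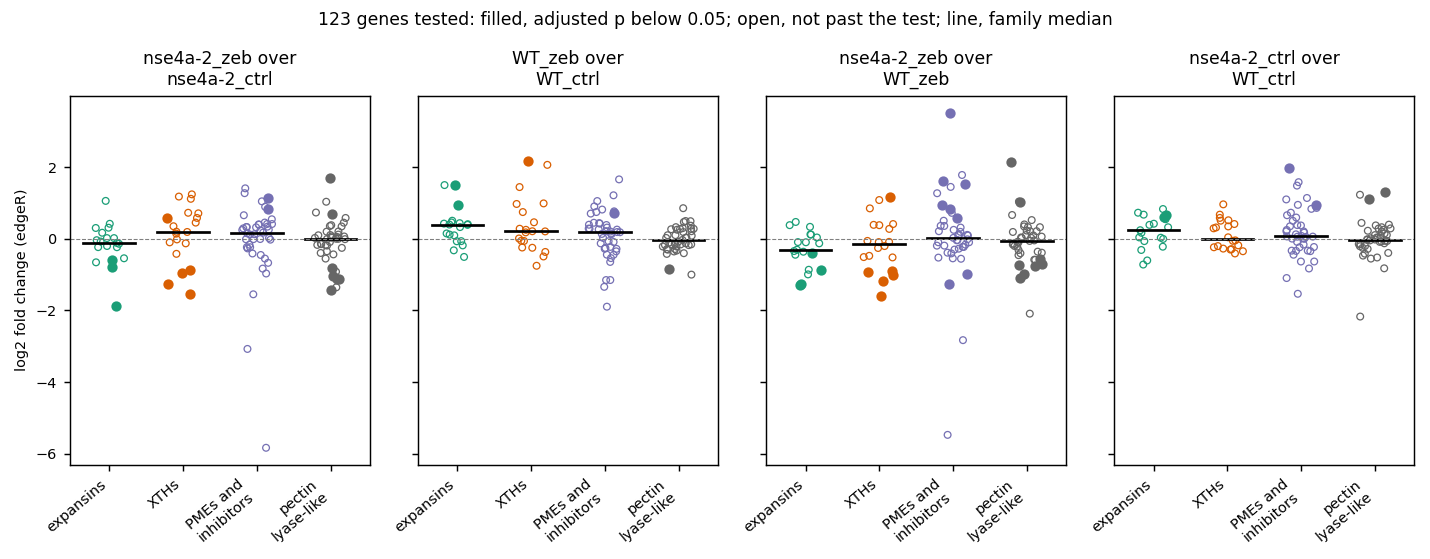
Log2 fold changes of the 123 tested genes by family in 4 comparisons; filled points passed an edgeR adjusted p of 0.05, open points did not, and the black line is the family median. The filled expansins lie below 0 in both panels that have nse4a-2 zebularine libraries on top, and above 0 in the other 2.

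The class of PME or invertase inhibitors, whose annotation does not tell the targets apart, held the widest called difference. AT5G62360 had 70.0 and 71.8 CPM in nse4a-2 with zebularine and 2.21 and 10.3 CPM in wild type with zebularine (log2 fold change 3.52 ± 0.49, edgeR adjusted p = 0.00111). The control libraries lay between, with 23.2 and 35.5 CPM in nse4a-2 and 15.3 and 12.04 CPM in wild type. AT5G62350, its neighbour on chromosome 5 in the gene order of TAIR10.1, had 266 and 273 CPM in nse4a-2 with zebularine and 118 and 162 CPM in wild type with zebularine (0.94 ± 0.15, edgeR adjusted p = 0.00251). AT5G62340, the next gene in the row and also an inhibitor, was named after its values were seen. It had 1 read in each nse4a-2 zebularine library and 2 and 16 reads in wild-type zebularine, and was not called. Whether the libraries keep the strand is not stated, so reads from neighbouring or overlapping genes cannot be told apart by it. The other 4 inhibitor calls went both ways. AT3G17130 and, named after its values were seen, AT3G47670 were higher in nse4a-2, and AT1G23205 and AT4G12390 were lower, the last with 6.92 and 7.32 CPM in nse4a-2 and 13.1 and 14.8 CPM in wild type (−0.97 ± 0.16, edgeR adjusted p = 0.00234). Of the PMEs, AT2G26440 at 1.54 ± 0.22 and PMEPCRF at 0.57 ± 0.14 were higher (edgeR adjusted p = 0.00123 and 0.0171). The 2 PMEs called lower, PME5 and AT5G19730, are given above with the pectin lyase-like family. The calls of AT5G62360, AT5G62350, AT4G12390 and AT2G26440 held in all 13 alternative fits, with AT5G62360 between 2.78 and 5.01 on the log2 scale. Those of AT3G17130, AT1G23205 and PMEPCRF were lost without wild-type zebularine replicate 1 or nse4a-2 zebularine replicate 2. That of PMEPCRF was also lost without nse4a-2 zebularine replicate 1.

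Summed over all genes of a class, the levels show how far such changes carry. The 74 inhibitors summed to 513 ± 6.94 CPM in nse4a-2 with zebularine, 353 ± 19.1 CPM in nse4a-2 control, 326 ± 40.6 CPM in wild-type zebularine and 296 ± 9.76 CPM in wild-type control (SD, n = 2 libraries each). Without AT5G62350 and AT5G62360, a pair picked after its values were seen, the other 72 summed to 173, 173, 179 and 166 CPM, so the difference between groups lay in those neighbouring genes. The 29 XTHs summed to 1527 ± 71.4, 1635 ± 98.1, 1917 ± 120 and 1636 ± 78.5 CPM in the same order, and without XTH9 to 1396, 1322, 1621 and 1254 CPM. Without XTH18, XTH19 and XTR6, picked after their values were seen, the other 26 summed to 1362, 1518, 1681 and 1564 CPM. Wild-type zebularine libraries were the high group in each of these sums, by a smaller margin over wild-type control in the last. Alpha-expansins ran the same way at 651 ± 3.50, 704 ± 19.3, 798 ± 53.7 and 669 ± 4.12 CPM, and beta-expansins at 37.1 ± 1.37, 44.2 ± 7.33, 68.5 ± 2.68 and 51.1 ± 0.713 CPM. For both the nse4a-2 zebularine libraries were the lowest. Summed PMEs, at 1221 ± 91.4, 1294 ± 147, 1233 ± 197 and 1228 ± 0.491 CPM, overlapped between all groups compared. The sums were not tested, since 2 libraries against 2 cannot reach p = 0.05 in an exact permutation test.

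**Figure D4:**
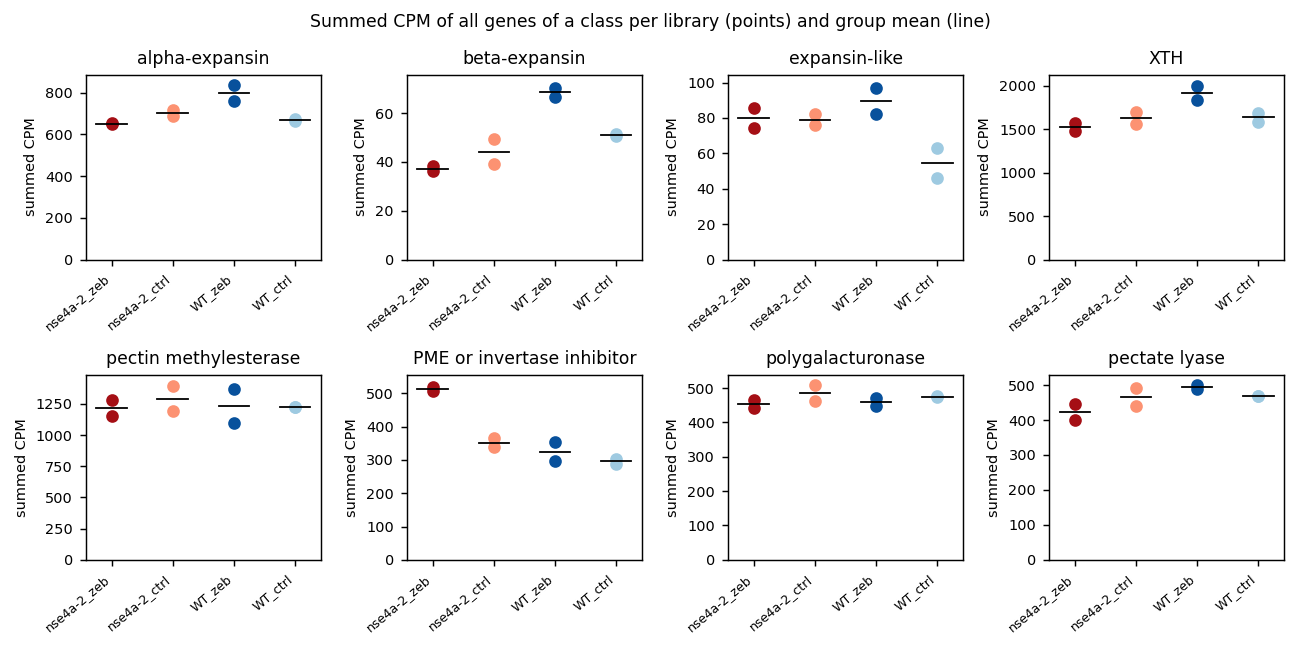
Summed CPM per library (points) and group mean (line) for all genes of each of 8 classes, in nse4a-2 with zebularine, nse4a-2 control, wild-type zebularine and wild-type control libraries; each vertical axis starts at 0. The inhibitor sum is highest in nse4a-2 with zebularine, at 518 and 508 CPM, and the XTH, alpha-expansin and beta-expansin sums are highest in wild-type zebularine.

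Some other gene lists give the setting, and not every list examined is described. None of the 6 primary wall cellulose synthase genes was called by edgeR in any comparison, with at most 1 at an unadjusted p under 0.05. Wall-associated kinases, receptors that bind pectin, were called only upward: 5 of 11 tested for zebularine in nse4a-2, 1 for zebularine in wild type, 2 for nse4a-2 in control medium and 6 for nse4a-2 in zebularine. Over all genes tested, 8.94%, 1.66%, 2.28% and 12.9% were called higher in these 4 comparisons. WAK1 averaged 190 CPM in nse4a-2 with zebularine, 65.8 CPM in nse4a-2 control, 35.5 CPM in wild-type zebularine and 16.3 CPM in wild-type control. WAK3 averaged 5.71 CPM in nse4a-2 with zebularine and at most 0.134 CPM elsewhere. Of the fasciclin-like arabinogalactan protein genes, 3 of 15 tested were called lower and none higher for zebularine in nse4a-2, and the same counts for nse4a-2 in zebularine. The shares of all genes called lower in these comparisons were 5.74% and 9.09%, and the shares called higher are those given for the kinases. Of the genes annotated as extensins or extensin-like, 6 of 29 tested were lower and none higher for zebularine in nse4a-2, led by AT1G23720 and AT3G54580. For nse4a-2 in zebularine 6 were lower and 4 higher. All 53 genes of the list still summed to 3434 to 3714 CPM in nse4a-2 with zebularine, above 2979 to 3288 CPM in nse4a-2 control. In wild type the sums were 2367 to 2563 CPM with zebularine and 2408 to 2486 CPM in control. Galacturonosyltransferases, which build pectin, split with 2 higher and 1 lower of 18 for zebularine in nse4a-2 and 3 higher and 2 lower for nse4a-2 in zebularine. In the same order, other arabinogalactan protein genes had 1 higher and 2 lower of 29 and 1 higher and 7 lower. Beta-galactosidases had 1 and 4 higher of 16 and none lower. Of 3 touch genes, TCH3 and CAM2 were called higher for zebularine in nse4a-2 and TCH3 for nse4a-2 in zebularine. The touch genes summed to 703 to 1020 CPM in nse4a-2 with zebularine and 317 to 351 CPM in nse4a-2 control. In wild type they summed to 396 to 437 CPM with zebularine and 152 to 278 CPM in control.

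Markers of cell types and of time of day differed between the same libraries; the clock genes were added after values had been seen. The clock gene CCA1 averaged 76.1 CPM in nse4a-2 with zebularine, 24.7 CPM in nse4a-2 control, 89.0 CPM in wild-type zebularine and 15.9 CPM in wild-type control. It was called higher in zebularine in both genotypes, as was LHY, and higher in nse4a-2 than in wild type in control medium. Of the 3 clock genes, 1 was called lower for zebularine in wild type. For nse4a-2 in zebularine, TOC1 and LHY were called in opposite directions. PIF5, a growth regulator under clock control, averaged 50.3, 18.6, 71.6 and 39.98 CPM in the same order. The hour of harvest is not given in the sources used here. Stomatal lineage markers summed to 59.6 to 73.5 CPM in nse4a-2 with zebularine, 103 to 110 CPM in nse4a-2 control, 73.6 to 87.4 CPM in wild-type zebularine and 92.8 to 117 CPM in wild-type control, with EPF2 and TMM called lower among 6 genes for zebularine in nse4a-2. For nse4a-2 in zebularine EPF2 was called lower and FAMA higher. Leaf photosynthesis markers summed to 16690 to 18910, 11770 to 13700, 14100 to 17710 and 12810 to 15460 CPM, with 3 of 6 called higher for zebularine in nse4a-2 and none for nse4a-2 in zebularine. LHCB2.1 was called higher for zebularine in wild type and lower for nse4a-2 in control medium. Of 3 root genes tested, COBL9 averaged 2.97 CPM in nse4a-2 with zebularine and at most 0.486 CPM in the other groups and was called higher. The other 2 were not called: PRP3 averaged 0.15, 0.978, 0.301 and 2.22 CPM and CASP1 0.606, 1.09, 0.863 and 0.821 CPM in nse4a-2 with zebularine, nse4a-2 control, wild-type zebularine and wild-type control. Of 8 shoot meristem and 3 epidermis markers tested none was called by edgeR in any comparison. At most 3 of each had an unadjusted edgeR p under 0.05. For the epidermis these were all 3 markers, in nse4a-2 against wild type in zebularine, with a median log2 fold change of −0.32. Their sums were 964 to 1089 CPM in nse4a-2 with zebularine and 1116 to 1285 CPM in nse4a-2 control. In wild type the sums were 1226 to 1401 CPM with zebularine and 1195 to 1235 CPM in control. The part of these markers in the results above was not tested.

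The authors' deposited table, which has 3 of the 5 comparisons, calls 23 of the 276 genes for zebularine in nse4a-2, 8.33% beside 7.4% of all genes. It calls 12 for zebularine in wild type, 4.35% beside 3.46%, and 17 for nse4a-2 in control medium, 6.16% beside 3.89%. In the edgeR test 35 of the 123 genes were called in at least 1 of the 5 comparisons and 88 in none, which is 28.5% beside 27.5% of all genes tested. Of the 35, 6 stand next to another gene of the set in TAIR10.1 order, as do 24 of the 123.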

How the data were processed

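The authors deposited raw read counts for every gene in each library, which the headers describe as not normalized; the headers call R1 and R2 of each group biological replicates, although GEO lists 1 sample per group. Reads refer to TAIR10, and the submitters' processing notes list TopHat2 and Cuffdiff but give neither version nor role; the counting tool and strand setting are not given in the sources used here. The mean FPKM of each group is the authors' deposited value and is printed without SD or n. For 3 comparisons the authors also deposited an adjusted p-value. Not used were 12 per-sample columns, holding single-library FPKM and SD, and 43 genes without values were left out.

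After filterByExpr 19682 genes remained. TMM scaling and 1 joint fit of the 4 groups used edgeR 4.0.16 (limma 3.58.1, R 4.3.3). Calls were made with edgeR's 2-sided quasi-likelihood test, Benjamini-Hochberg adjusted over all genes tested, below 0.05. The common biological coefficient of variation was 13.4%. CPM are TMM-scaled. The SE was derived from the log2 fold change and its F statistic. With 15360494 to 19811948 reads per library, 3 reads correspond to 0.147 to 0.192 CPM. The alternatives were DESeq2 1.42.0, RLE scaling, no count filter, only the 2 groups of a contrast, a replicate block and leaving out each library. The procedure was also run on simulated counts, whose outcome is not printed here, so no support is drawn from it. Gene names and neighbours come from the table and TAIR10.1, where all 276 genes were found; no coordinates are printed, since the builds differ by name. Tables used pandas 2.3.3 and numpy 2.4.6 under Python 3.11.15, and figures matplotlib 3.10.9.

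The genes and lists were chosen with earlier results of these data known, although the rule for the 276 genes used the annotation alone. Named are, per family and comparison, up to 4 called genes each way by size of change, and the 2 smallest p-values where none was called. The 3 highest mean FPKM per family are named too, with values per library for up to 12 genes called in 2 or more comparisons. Of the other lists only some are described, with up to 2 called genes per list and comparison. Other genes are marked where they appear.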

Additional observations from a re-analysis of the deposited data

Results flagged for a closer look

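The pectate lyase gene AT3G53190 was the gene of the set whose zebularine response differed between nse4a-2 and wild type by a test of the difference itself. Its log2 response in nse4a-2 minus that in wild type was −0.91 (SE 0.15, edgeR adjusted p = 0.0354). The response was −1.12 ± 0.11 in nse4a-2 and −0.22 ± 0.11 in wild type (SE), and in each genotype both zebularine libraries were below both controls. With 1 library left out, the difference lay between −1.01 and −0.82 and was not called in any of the 8 fits.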

How the results depend on the processing

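Of 52 calls of named genes, 19 held in every alternative, 33 were lost in at least 1 and 0 changed sign. Most were lost without nse4a-2 zebularine replicate 2, where 24 of 52 were lost. DESeq2 and the replicate block lost 0 of them, RLE scaling lost 1, and no count filter lost 1. With only the 2 groups of a comparison in the fit, 9 of the 51 calls that could be compared were lost. The fits with DESeq2 and without the count filter cover 194 genes of the set, against 123 in the fit reported. For the counts here and in the paragraphs below, the shares over all genes are not printed. A change in number is therefore not read as particular to the set. Genes higher for zebularine in wild type numbered 4 in the fit reported, 10 with DESeq2, 12 without the count filter and 1 with only the 2 groups. None of the 4 was called with only the 2 groups, where the 1 call was another XTH. Genes higher for zebularine in nse4a-2 numbered 5, and 8 without the filter. Those higher for nse4a-2 in control medium numbered 6, and those lower 0 at 32 genes of either direction with an unadjusted p under 0.05; the lower ones were 2 with DESeq2, 2 without the filter and 1 with only the 2 groups. For the difference, higher genes numbered 0, with 1 in DESeq2 and 2 without the filter, and lower genes 1, with 4 in DESeq2 and 4 without the filter.

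With 1 library left out, the counts ranged from 0 to 7 higher and 0 to 1 lower for zebularine in wild type, from 2 to 8 and 6 to 13 for zebularine in nse4a-2, from 0 to 7 and 0 to 1 for nse4a-2 in control medium, from 7 to 13 and 8 to 20 for nse4a-2 in zebularine, and from 0 to 2 and 0 to 3 for the difference. These fits have 1 library fewer, and the library left alone takes its spread from the remaining groups.

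Same-numbered replicates deviated together at r of −0.0863 to 0.234 across genes, so the numbers are not taken as pairs. With the replicate block, zebularine gave 12 genes higher and 1 lower in wild type, and 9 higher and 12 lower in the mutant. The genotype comparison gave 10 higher and 2 lower without the drug, and 10 higher and 19 lower with it. The difference gave 2 higher and 3 lower. With the block the differences of XTH6, AT2G26440 and AT5G62360, not called in the fit reported, had edgeR adjusted p-values of 0.0401, 0.0368 and 0.0492. The difference has no fit with only 2 groups. Depth limits the 71 genes with reads that were not tested.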
